A study of Sus scrofa domesticus with 150 samples.

Results

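The center of porcine skin wounds was compared between day 11 and day 5 after wounding. All samples labelled center from these days were taken, which gave 6 samples of day 11 and 6 of day 5, 12 of the 150 samples of the series. They came from the same 3 animals, female Yorkshire-mix pigs with the numbers 1323, 1324 and 1325 that weighed 45 to 50 kg. Each animal had full-thickness circular excisional wounds of 2 cm in diameter on its back, covered with Telfa Clear and Tegaderm dressings, and received no further treatment apart from an antibiotic ointment at biopsy sites. On day 5 wounds B and K of each animal were biopsied, and on day 11 wounds C and J, so each sample was a wound of its own and the 2 wounds of an animal were not separate animals. A p-value therefore measured the spread between wounds after the differences between animals were taken out. The wound letters differed between the days in every animal, so day and wound letter cannot be told apart. Poly-A RNA was sequenced as paired reads, and the deposited values were reads counted per gene.

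The early center of such a wound holds provisional matrix and inflammatory cells, over which granulation tissue forms. Granulation tissue is made of fibroblasts that deposit collagen, of new blood vessels and of macrophages. Later it is remodelled: matrix metalloproteinases cut the matrix, cells stop dividing, and epidermis closes the surface from the edges. Since bulk tissue was measured, fewer cells of a type and less RNA per cell cannot be told apart in any value given here.

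Levels are given as CPM, the counts of a gene scaled to a common library total by TMM, and changes as log2 fold changes of day 11 over day 5 with their standard error (SE). A gene was called where edgeR's quasi-likelihood test with the animal as block gave a Benjamini-Hochberg adjusted p below 0.05 over all 14091 genes tested. Of these, 2171 (15.4%) were higher on day 11 and 2387 (16.9%) were lower. All 6 samples of day 11 lay above all 6 of day 5 for 934 genes (6.63%) and below them for 962 genes (6.83%). The median log2 fold change of all genes was 0.02. Scaled by library size without TMM, the median was lower by 0.12 and the calls were 1518 higher and 3305 lower, so that the share of calls that were higher went from 47.6% to 31.5%. With the 2 wounds of each animal summed, 3 animals against 3, 224 genes were higher and 266 lower, and without animal 1325 the numbers were 482 and 363.

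Total counts ranged from 14034086 to 23640195 per sample. Samples of day 5 correlated with each other at a mean Pearson's r of 0.968 to 0.976 on the log2(CPM + 1) scale across genes, and 5 samples of day 11 at 0.942 to 0.960. The other day 11 sample, wound C of animal 1323, stood apart with 0.903. Its genes for basal and activated keratinocytes summed to 35800 CPM, against 207 to 487 CPM in the other day 11 samples. Its inflammatory cytokine and neutrophil genes summed to 9950 CPM against at most 2070 CPM. Not all members of that list were high: LIF had its lowest day 11 value in this wound, 0.451 CPM, and PTX3 was at 4.74 CPM. Without this wound 2079 genes were higher and 2360 lower. Wound C of animal 1324 held the most RNA of T cell genes, and wound K of animal 1325 on day 5 held 2250 CPM of skeletal muscle genes, against 11.5 to 22.5 CPM in the other 11 samples. Their part in the results was not tested beyond leaving each out.

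The largest gains among genes whose days did not overlap were spread over genes of unlike roles, and C3 had the widest gap between the days. C3 (ENSSSCG00025070194), the central component of the complement cascade, ranged from 19.6 to 73.3 CPM on day 5 with a median of 36.4, and from 471 to 1270 CPM on day 11 with a median of 929. The lowest day 11 wound was thus several times above the highest day 5 wound, and the log2 fold change was 4.51 ± 0.38 (SE, n = 6 per day, adjusted p = 0.000279). MMP13 (ENSSSCG00025038297), a collagenase, was at 0.352 to 21.3 CPM with a median of 3.27 on day 5 and at 30.4 to 331 CPM with a median of 170 on day 11. Its log2 fold change was 5.2 ± 1.01 (adjusted p = 0.00425), and the lowest day 11 wound lay above the highest day 5 wound. COL8A2, a short-chain collagen, had a median of 1.38 CPM on day 5 and 121 CPM on day 11 (log2 fold change 5.11 ± 1.11, adjusted p = 0.00701). On day 5 its highest wound, K of animal 1324, was at 44.3 CPM, which lay close to the lowest day 11 wound at 55.0 CPM.

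ATP6V0D2, a subunit of the proton pump of macrophages and osteoclasts, had a median of 0.582 CPM on day 5, with 2.37 CPM at most, and 15.8 CPM on day 11, with 9.82 CPM at least. Its log2 fold change was 4.6 ± 0.59 (adjusted p = 0.000788). PLA2G2D, a secreted phospholipase of lymphoid tissue, ranged from 0 to 1.46 CPM on day 5 and from 1.57 to 127 CPM on day 11 (4.59 ± 0.73, adjusted p = 0.00175), and its highest wound was the T cell rich wound C of animal 1324. GRIA1, a glutamate receptor subunit, was at 0.0455 to 0.806 CPM on day 5 and at 2.75 to 18.2 CPM on day 11 (5.27 ± 0.56, adjusted p = 0.000466). XDH, the enzyme that makes uric acid, had medians of 2.44 and 67.5 CPM (5.08 ± 1.19, adjusted p = 0.00983), and its highest value, 473 CPM, was that of the keratinocyte-rich wound C of animal 1323. Without that wound its log2 fold change was 4.22. PRSS35, a serine protease-like protein, had a log2 fold change of 4.32 ± 0.74 (adjusted p = 0.00243), and the related LYPD6 and LYPD6B, which bind acetylcholine receptors, had 4.10 ± 0.59 and 4.35 ± 0.60 (adjusted p = 0.00117 and 0.000984).

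The largest losses among genes whose days did not overlap included PTX3, LIF and PNPLA3. PTX3, a soluble pattern recognition protein, fell from a median of 207 CPM (33.1 to 438) to 6.67 CPM (3.90 to 10.7), a change of -4.76 ± 0.58 (adjusted p = 0.000695). LIF, a cytokine of the interleukin 6 family, was at 20.0 to 83.0 CPM on day 5 and at 0.451 to 10.9 CPM on day 11 (-3.79 ± 0.56, adjusted p = 0.00129). No wound of one day reached the range of the other for either gene.

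PNPLA3, a lipid droplet hydrolase, had medians of 85.4 and 1.71 CPM (-5.09 ± 0.77, adjusted p = 0.00147), and TRARG1, a regulator of glucose transporter traffic in fat, had 242 and 15.8 CPM (-3.97 ± 1.06, adjusted p = 0.0170). The summed level of the adipocyte genes moved in the same direction in the same samples, as given below, and its part in these values was not tested. AKR1C3, a steroid-reducing enzyme, changed by -3.71 ± 0.51 (adjusted p = 0.000984), and SLC6A2, the noradrenaline transporter, by -3.74 ± 0.77 (adjusted p = 0.00554). The growth factors FGF18 and BTC changed by -3.87 ± 0.73 and -3.50 ± 0.72 (adjusted p = 0.00364 and 0.00545), and CHST13, a chondroitin sulfotransferase, by -4.33 ± 0.68 (adjusted p = 0.00174). These 19 genes of largest change were chosen as called genes whose days did not overlap, so their direction in each animal was fixed by that choice. With the wounds of an animal summed 12 of them were called. MMP13, COL8A2, XDH, PRSS35, CHST13, TRARG1 and FGF18 were not.

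**Figure D1:**
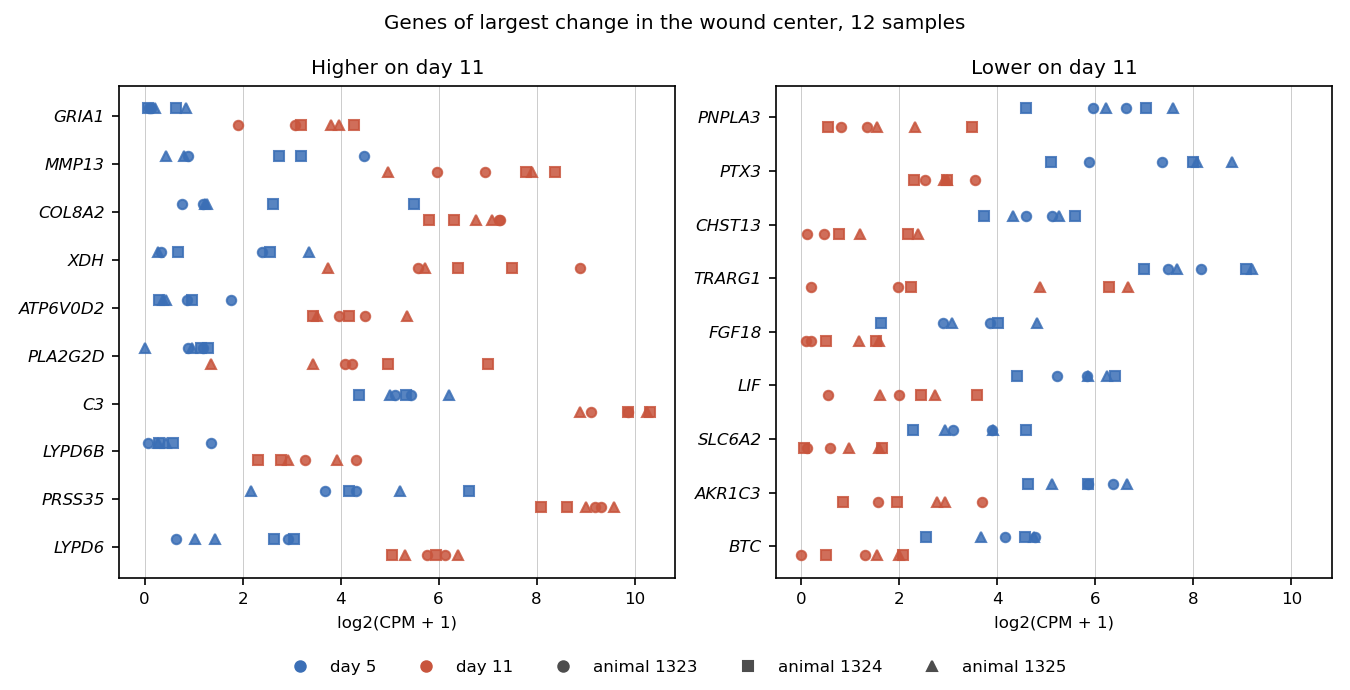
Level of 19 genes with the largest change, as log2(CPM + 1) on the x axis, with 1 point per wound (blue day 5, red day 11, marker shape by animal). Each gene shows a gap between all day 5 and all day 11 points, which the choice of these genes required, and the gap was narrowest for PLA2G2D and FGF18.

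Gene lists were described by how many of their tested members were called, against 15.4% of all genes higher and 16.9% lower, and by the median log2 fold change of the members tested, against 0.02 over all genes. Among lists with at least 5 members tested, the share higher was largest for lymphatic vessel, T and NK cell, fibrillar collagen and metalloproteinase genes, and the share lower for genes of mitosis, adipocytes, DNA replication and the secretory pathway.

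Many of these counts were smaller without animal 1325. The calls higher and lower without it were 3 and 0 for fibrillar collagens, 2 and 0 for other collagens, 3 and 0 for collagen processing, 3 and 0 for adhesive and matricellular proteins and 1 and 0 for proteoglycans and elastic fibers. They were 0 and 2 for TGF-beta, activin and BMP genes, of which 22 were then tested, 4 and 1 for the WNT pathway, 1 and 4 for growth factors, 1 and 1 for macrophage genes, 2 and 1 for complement and 0 and 0 for pericytes. With the wounds of an animal summed, the calls were 1 and 0 for other collagens, collagen processing, proteoglycans and pericytes, 4 and 0 for adhesive proteins, 0 and 1 for TGF-beta genes, 3 and 2 for WNT, 0 and 3 for growth factors and 2 and 0 for complement.

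Of 147 called genes that met the naming rules, 113 were called whichever 1 of the 12 wounds was left out. The other 34, all with an adjusted p of 0.0149 or above, were not called without at least 1 wound: COL3A1, LOXL1, CCN3, THBS1, FBLN1, EFEMP1, KERA, MYL9, LPP, TGFB1, ID1, SFRP4, FGF10, FGF2, CXCL8, MARCO, KLRK1, BLK, CXCL9, CIITA, EXO1, ANKRD37, PGAM1, PDK1, ICAM2, ACKR1, DSP, CALML5, KRT27, PCK1, PLIN1, SLC45A2, HBM and CD3E.

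**Figure D2:**
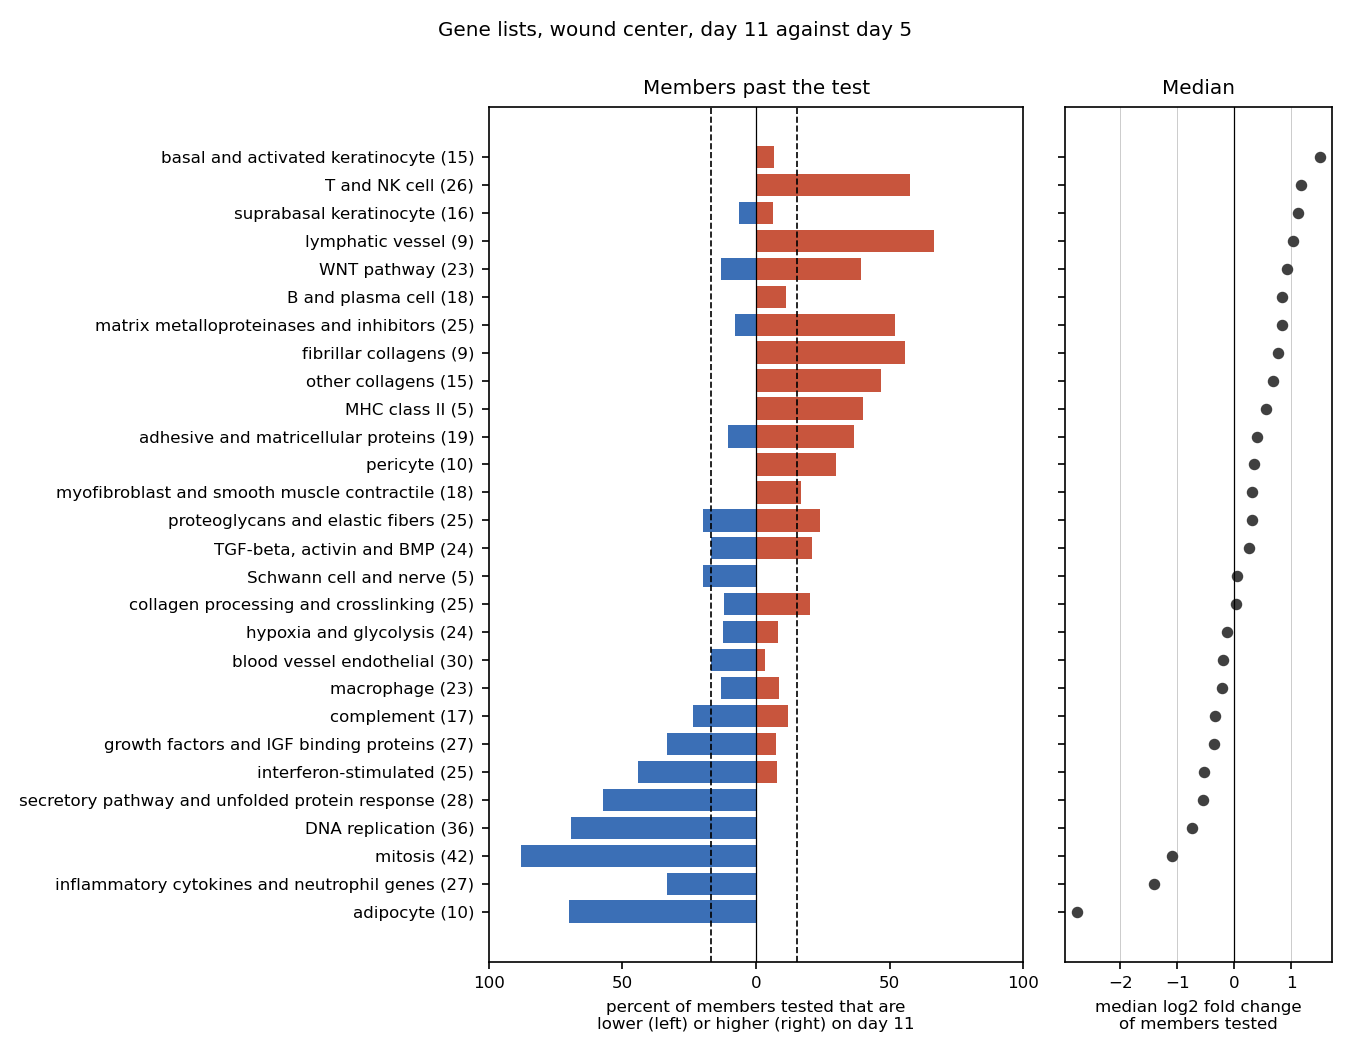
Left, percent of the tested members of each gene list (number tested in brackets) that were lower (blue, to the left) or higher (red, to the right) on day 11, with dashed lines at the percent of all genes, 16.9 and 15.4. Right, the median log2 fold change of the members, which ran from -2.76 for adipocyte genes to 1.5 for basal and activated keratinocyte genes, of which 1 of 15 was called.

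Genes of fibrillar collagens, the load-bearing fibers of dermis and scar, were called higher for 5 of 9 tested members and lower for none, with a median log2 fold change of 0.77. The minor fibrillar collagens changed most. COL11A1, which seeds fibrils and limits their width, had a median of 13.5 CPM on day 5 (7.58 to 62.7) and 238 CPM on day 11 (194 to 421), without overlap between the days (4.06 ± 0.54, adjusted p = 0.000896). COL24A1 followed with 2.84 ± 0.42 (adjusted p = 0.00132) and COL27A1 with 1.16 ± 0.21 (adjusted p = 0.00318). Of the main collagens, COL3A1 ranged from 13700 to 32300 CPM on day 5 and from 26200 to 59400 CPM on day 11 (0.89 ± 0.25, adjusted p = 0.0212), and COL1A2 changed by 0.77 ± 0.24 (adjusted p = 0.0308). COL1A1 did not pass the test, with medians of 24800 and 37300 CPM and overlapping days (0.71 ± 0.27, adjusted p = 0.0666). In animal 1324 its difference was 0.03, against 1.16 in animal 1323 and 0.93 in animal 1325. With the wounds of an animal summed, 0 fibrillar collagens were called.

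Among the other collagens, 7 of 15 were higher and 0 lower (median 0.68). COL7A1, the anchoring fibril collagen of the dermal-epidermal junction, went from a median of 123 CPM to 1060 CPM (2.59 ± 0.65, adjusted p = 0.0126), with overlap because wound K of animal 1324 reached 420 CPM on day 5. COL16A1 (1.99 ± 0.31, adjusted p = 0.00175) and COL21A1 (1.97 ± 0.28, adjusted p = 0.00116), which associate with fibrils, did not overlap between the days. The basement membrane chains COL4A1 and COL4A2 were not called, at 0.25 and 0.30 (adjusted p = 0.238 and 0.172). Wound K of animal 1324 was the highest day 5 sample for COL11A1, COL24A1, COL3A1, COL1A1, COL7A1, COL8A2 and COL16A1, and wound C of animal 1324 the lowest day 11 sample for the same genes but COL8A2.

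Of the genes that process and crosslink collagen, 5 of 25 were higher and 3 lower, with a median of 0.03. The 3 procollagen N-proteinases were all higher: ADAMTS14 by 1.94 ± 0.24 (adjusted p = 0.000770), ADAMTS2 by 1.53 ± 0.22 (adjusted p = 0.00117) and ADAMTS3 by 1.34 ± 0.24 (adjusted p = 0.00276). Among the lower members, SERPINH1, the collagen chaperone, went from a median of 1810 CPM to 809 CPM (-0.96 ± 0.24, adjusted p = 0.0124), and P4HA1, a prolyl hydroxylase, from 202 to 81.2 CPM (-1.11 ± 0.23, adjusted p = 0.00518). Of the lysyl oxidases, LOXL4 fell from 53.5 to 7.45 CPM (-2.69 ± 0.46, adjusted p = 0.00249), while LOXL1 was higher by 0.73 ± 0.22 (adjusted p = 0.0273).

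Adhesive and matricellular proteins, which link cells to the matrix, were higher for 7 of 19 members and lower for 2 (median 0.40). FN1, fibronectin, had a median of 2250 CPM on day 5 (1440 to 3680) and of 8410 CPM on day 11 (4280 to 13200), with no overlap (1.76 ± 0.32, adjusted p = 0.00298). TNN, tenascin-W, went from 6.70 to 104 CPM (3.74 ± 0.50, adjusted p = 0.000896) and POSTN, periostin, from 164 to 632 CPM (1.93 ± 0.48, adjusted p = 0.0119), the latter with overlap because wound B of animal 1325 already had 703 CPM on day 5. CCN2, connective tissue growth factor, was at 51.0 to 145 CPM on day 5 and at 159 to 501 CPM on day 11 (1.51 ± 0.28, adjusted p = 0.00319). Its relative CCN3 and the thrombospondin THBS1 were lower, by -1.88 ± 0.49 and -1.07 ± 0.36 (adjusted p = 0.0149 and 0.0417).

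Proteoglycans and elastic fiber genes divided as well, with 6 of 25 higher and 5 lower (median 0.31). Of the small leucine-rich proteoglycans, which bind collagen fibrils, ASPN, LUM and FMOD were higher and KERA lower. ASPN had medians of 585 and 2040 CPM without overlap (1.81 ± 0.29, adjusted p = 0.00178), LUM changed by 1.07 ± 0.25 (adjusted p = 0.0103) and FMOD by 1.00 ± 0.27 (adjusted p = 0.0168), while KERA changed by -1.65 ± 0.52 (adjusted p = 0.0324, and 0.0523 without wound C of animal 1323). VCAN, the large proteoglycan of provisional matrix, went from a median of 349 to 170 CPM (-0.92 ± 0.23, adjusted p = 0.0129). The fibulins FBLN1 and EFEMP1 fell by 2.82 and 2.13 on the log2 scale (SE 0.81 and 0.72, adjusted p = 0.0232 and 0.0430), with overlapping days. Without wound C of animal 1323 EFEMP1 was not called (adjusted p = 0.0732).

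Matrix metalloproteinases, which cut collagen and other matrix proteins, and their inhibitors had 13 of 25 members higher and 2 lower (median 0.83). The list summed to 6360 to 10500 CPM on day 5 and to 12400 to 26100 CPM on day 11. MMP9, a gelatinase, ranged from 256 to 785 CPM and then from 1550 to 5380 CPM (2.61 ± 0.37, adjusted p = 0.00103). MMP12, the macrophage elastase, had a median of 27.2 CPM on day 5 and 320 CPM on day 11 (4.01 ± 0.83, adjusted p = 0.00549), and the collagenase MMP1 had 81.8 and 503 CPM (2.54 ± 0.35, adjusted p = 0.000995). None of these 3 overlapped between the days. The inhibitor TIMP1 moved the other way, from 623 to 1980 CPM on day 5 to 234 to 397 CPM on day 11, again without overlap (-2.11 ± 0.27, adjusted p = 0.000777). PLAU, urokinase, was lower by -0.61 ± 0.14 (adjusted p = 0.00939). MMP13, MMP12 and MMP1 lie on the same contig of the deposited annotation, LUXX01036107.1, on the plus strand from 2344904 to 2363889, from 2429097 to 2439692 and from 2458848 to 2501670. With the wounds of an animal summed, 3 members of the list were higher and 1 lower, and without animal 1325 the numbers were 6 and 1.

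Contractile genes of myofibroblasts and smooth muscle were higher for 3 of 18 members, near the share of all genes, and lower for none (median 0.31). MYLK, myosin light chain kinase, was at 51.4 to 74.5 CPM on day 5 and at 83.8 to 173 CPM on day 11 (1.20 ± 0.17, adjusted p = 0.00102). MYL9 changed by 0.51 ± 0.16 (adjusted p = 0.0362) and LPP by 0.42 ± 0.15 (adjusted p = 0.04996, and 0.0513 without wound C of animal 1323). ACTA2, the smooth muscle actin of myofibroblasts, was not called, at medians of 332 and 400 CPM (0.58 ± 0.23, adjusted p = 0.0762), but was called without wound C of animal 1323 (0.68, adjusted p = 0.0345). Scaled by library size without TMM, 1 member was higher and 1 lower.

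Of the TGF-beta, activin and BMP genes, which drive matrix production and fibroblast state, 5 of 24 were higher and 4 lower (median 0.25). These shares, 20.8% and 16.7%, were near those of all genes, and 15 members were not called. The called members that were higher included TGFB1 by 0.49 ± 0.15 (adjusted p = 0.0267), TGFB3 by 0.71 ± 0.14 (adjusted p = 0.00508), INHBB by 1.20 ± 0.23 (adjusted p = 0.00422) and the receptor ACVR1 by 0.85 ± 0.16 (adjusted p = 0.00331). The called members that were lower included targets and inhibitors of BMP signaling. ID3 ranged from 140 to 185 CPM on day 5 and from 62.6 to 92.6 CPM on day 11 (-1.09 ± 0.13, adjusted p = 0.000637), ID1 changed by -0.99 ± 0.34 (adjusted p = 0.0468, and 0.0789 without wound C of animal 1324) and SMAD6 by -0.83 ± 0.22 (adjusted p = 0.0157). FSTL3, which binds activin, changed by -0.65 ± 0.18 (adjusted p = 0.0196).

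In the WNT pathway, 9 of 23 members were higher and 3 lower (median 0.92). The agonist RSPO1 was at 0 to 3.14 CPM on day 5 and at 7.43 to 18.1 CPM on day 11 (3.87 ± 0.72, adjusted p = 0.00351). The ligand WNT5B rose from a median of 6.94 to 25 CPM (1.72 ± 0.27, adjusted p = 0.00166) and AXIN2, a general target of the pathway, from 5.27 to 17.0 CPM (1.67 ± 0.29, adjusted p = 0.00243), both without overlap. Secreted antagonists were among the lower genes: SFRP2 went from 1510 to 3910 CPM to 292 to 621 CPM (-2.34 ± 0.23, adjusted p = 0.000396), SFRP4 changed by -2.58 ± 0.75 (adjusted p = 0.0240) and DKK2 by -2.34 ± 0.50 (adjusted p = 0.00664). DKK3, a distant member of that family, was higher by 1.59 ± 0.34 (adjusted p = 0.00595).

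Growth factors and IGF binding proteins had 9 of 27 members lower and 2 higher (median -0.36). IGF1 had a median of 62.7 CPM on day 5 (26.8 to 104) and 8.45 CPM on day 11 (4.89 to 11.4), without overlap (-2.83 ± 0.32, adjusted p = 0.000563). The mesenchymal factors FGF10 and FGF2 changed by -2.04 ± 0.62 and -1.63 ± 0.51 (adjusted p = 0.0296 and 0.0327). VEGFA, the main angiogenic factor, was at 54.4 to 88.6 CPM and then at 29.5 to 39.1 CPM (-1.02 ± 0.14, adjusted p = 0.000915). IGFBP2 and PDGFC were the higher members, by 1.10 ± 0.29 and 0.73 ± 0.17 (adjusted p = 0.0162 and 0.00984).

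Inflammatory cytokine and neutrophil genes were lower for 9 of 27 members and higher for 0, with a median of -1.41. Besides PTX3 and LIF, CXCL8, the main neutrophil attractant, went from a median of 1690 CPM (125 to 4410) to 268 CPM (28.7 to 619), with overlap (-2.70 ± 0.88, adjusted p = 0.0370). Its change was -4.51 in animal 1323 and -3.61 in animal 1325 but -0.05 in animal 1324, and without wound C of animal 1323 it was not called (adjusted p = 0.0506). IL6 changed by -1.47 ± 0.37 (adjusted p = 0.0128) and CCL20 by -2.61 ± 0.71 (adjusted p = 0.0177). IL1B was not called, at medians of 105 and 15.4 CPM and a range of 9.89 to 377 CPM on day 5 alone (-2.19 ± 1.14, adjusted p = 0.159). The neutrophil and keratinocyte gene S100A8 was at 12.7 to 2420 CPM on day 11 (1.06 ± 1.10, adjusted p = 0.478). Without animal 1325, 2 members of the list were lower, and with the wounds of an animal summed 3.

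Macrophage genes were higher for 2 of 23 members and lower for 3, both below the shares of all genes, with a median of -0.22. The members that moved differ in what they mark. GPNMB, of lysosome-rich macrophages, ranged from 297 to 540 CPM on day 5 and from 968 to 3250 CPM on day 11 (2.41 ± 0.30, adjusted p = 0.000754), and CD68, a lysosomal marker, from 66.4 to 149 and then from 126 to 222 CPM (0.88 ± 0.21, adjusted p = 0.0108). In the time course given below, GPNMB had medians of 491 CPM in excised skin and 333 CPM on day 5, where CD68 had 12.7 and 89.7 CPM. Between skin and day 5 the level of GPNMB thus did not follow CD68. The lectin CD209 was at 41.9 to 211 CPM on day 5 and at 12 to 34.6 CPM on day 11 (-2.59 ± 0.42, adjusted p = 0.00204). The integrin ITGAM of recruited myeloid cells changed by -1.43 ± 0.26 (adjusted p = 0.00318) and the scavenger receptor MARCO by -1.73 ± 0.59 (adjusted p = 0.0445), the latter not called without wound C of animal 1323 (adjusted p = 0.0900). CD163 had medians of 426 and 317 CPM and overlapped (-0.46 ± 0.29, adjusted p = 0.234).

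Of the complement genes, 2 of 17 were higher and 4 lower (median -0.33), or 11.8% and 23.5% against 15.4% and 16.9% of all genes. C3 and CFD, the protease that starts the alternative pathway, were higher, CFD from a median of 160 to 381 CPM without overlap (1.24 ± 0.17, adjusted p = 0.000915). CFB, its partner in that pathway, was lower by -2.45 ± 0.55 (adjusted p = 0.00789) and the terminal component C7 by -3.49 ± 0.83 (adjusted p = 0.0103). The receptor C3AR1 changed by -0.95 ± 0.23 (adjusted p = 0.0114).

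Interferon-stimulated genes, the antiviral response that type I interferon turns on, were lower for 11 of 25 members and higher for 2 (median -0.53). IFI6 went from 270 to 631 CPM to 150 to 241 CPM (-1.19 ± 0.21, adjusted p = 0.00290) and MX1 from 148 to 231 CPM to 51.7 to 126 CPM (-1.15 ± 0.18, adjusted p = 0.00152), both without overlap. ISG15 and OAS1 changed by -0.88 ± 0.22 and -0.86 ± 0.21 (adjusted p = 0.0114 for both). The 2 higher members were BST2 (0.55 ± 0.09, adjusted p = 0.00225) and CXCL9, a T cell attractant induced by interferon gamma, which had medians of 4.97 and 20.2 CPM (2.33 ± 0.78, adjusted p = 0.0417). Without wound C of animal 1323, where it was at 109 CPM, CXCL9 was not called (adjusted p = 0.0910). Without animal 1325, 3 members were lower, and with the wounds of an animal summed 1.

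T and NK cell genes were higher for 15 of 26 members and lower for 0, with a median of 1.17. The list summed to 379 to 547 CPM on day 5 and to 504 to 785 CPM in 5 wounds of day 11, while wound C of animal 1324 had 1700 CPM. CD3E, a chain of the T cell receptor complex, was at 7.41 to 15.7 CPM on day 5 and at 16.9 to 101 CPM on day 11, without overlap (1.42 ± 0.38, adjusted p = 0.0174). The costimulation regulators CTLA4 and ICOS had medians of 0.940 and 3.62 CPM on day 5 and of 3.55 and 10.3 CPM on day 11 (2.40 ± 0.45 and 2.18 ± 0.45, adjusted p = 0.00346 and 0.00556). IL2RB changed by 1.63 ± 0.40 (adjusted p = 0.0115) and KLRK1, a receptor of NK and cytotoxic T cells, by 1.62 ± 0.45 (adjusted p = 0.0196). CD8A and FOXP3, markers of cytotoxic and regulatory T cells, were higher as well, both by 1.56 (SE 0.39 and 0.40, adjusted p = 0.0135 and 0.0133). Without wound C of animal 1324, 17 members were higher, but without animal 1325 the number was 1, and with the wounds of an animal summed it was 0.

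Among B and plasma cell genes 2 of 18 were higher and 0 lower (median 0.84), below the share of all genes. IRF4 had medians of 8.53 and 27.6 CPM (2.22 ± 0.40, adjusted p = 0.00292) and BLK had 5.69 and 11.3 CPM (1.56 ± 0.46, adjusted p = 0.0253). In both the highest wound was C of animal 1324, with 148 and 90.5 CPM. Of the MHC class II genes only 5 of 10 were found by symbol, and 2 were higher: SLA-DMB by 0.91 ± 0.25 (adjusted p = 0.0200) and CIITA, the regulator of this class, by 0.86 ± 0.27 (adjusted p = 0.0328).

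**Figure D3:**
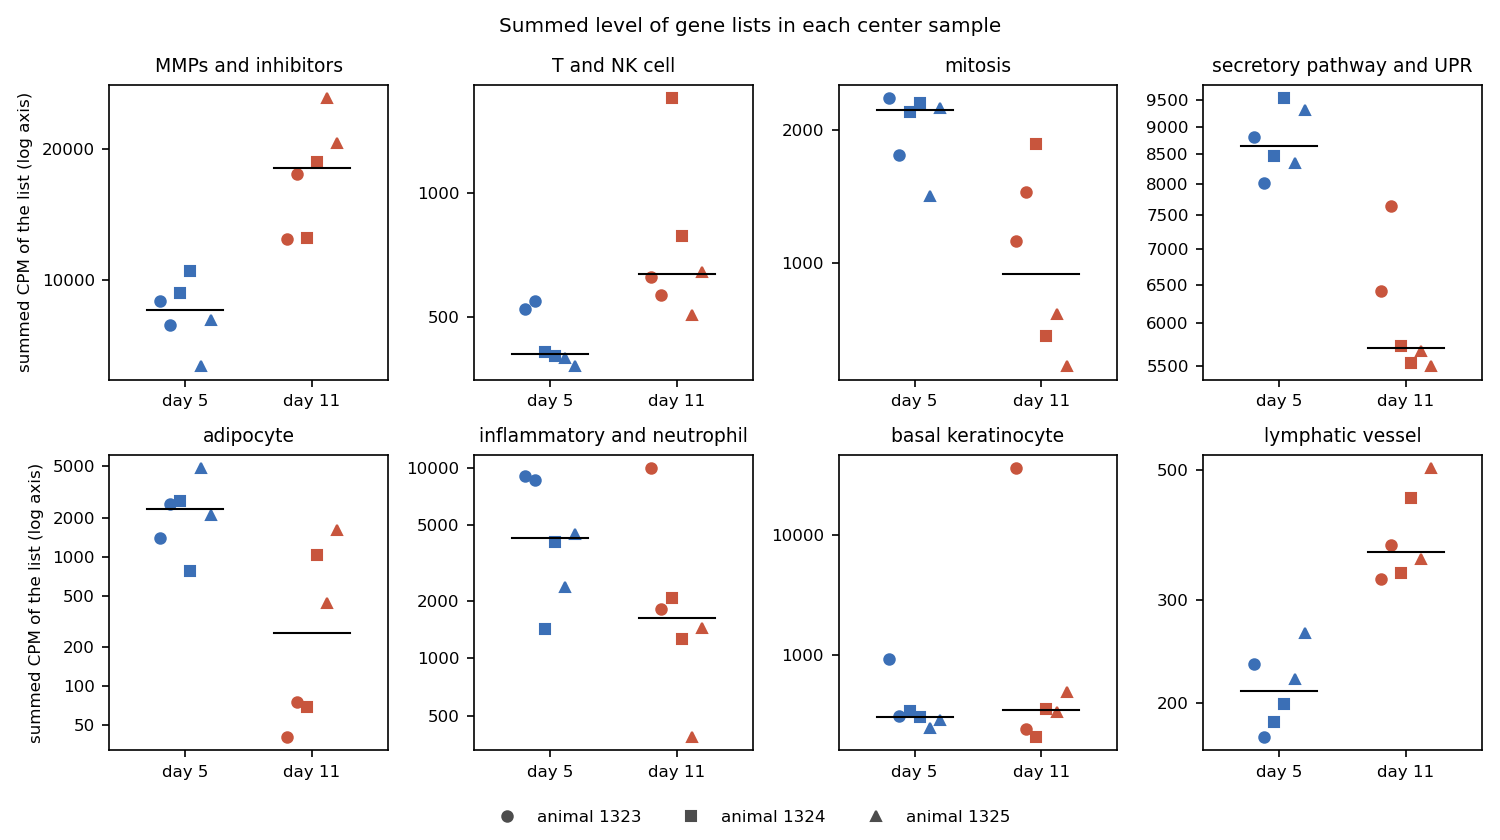
Sum of the CPM of all genes of 8 lists in each center sample on a log axis (blue day 5, red day 11, marker shape by animal, line at the median of the 6 samples). The days did not overlap for metalloproteinase, secretory pathway (UPR, unfolded protein response) and lymphatic vessel genes, and single day 11 wounds stood high for T and NK cell genes (1700 CPM, animal 1324) and basal keratinocyte genes (35800 CPM, animal 1323).

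Mitosis genes were lower for 37 of 42 members and higher for 0, with a median of -1.10. CDC20, which triggers anaphase, had a median of 67.8 CPM on day 5 (37.7 to 82.6) and 20.2 CPM on day 11 (11.7 to 38.4), with a narrow overlap (-1.53 ± 0.31, adjusted p = 0.00515). UBE2C, its partner, was at 52.6 to 80.0 and then at 11.9 to 48.3 CPM (-1.5 ± 0.30, adjusted p = 0.00468). PBK, a mitotic kinase, changed by -1.49 ± 0.26 (adjusted p = 0.00254), ANLN, of the cleavage furrow, by -1.45 ± 0.23 (adjusted p = 0.00175) and CDK1, the kinase that starts mitosis, by -1.31 ± 0.25 (adjusted p = 0.00425). MKI67, the usual marker of cycling cells, did not move with them: its medians were 107 and 93.0 CPM (-0.03 ± 0.30, adjusted p = 0.945). The other members not called were AURKB, KIF14, CENPF and FOXM1, with log2 fold changes of -0.73 to -0.59.

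DNA replication genes were lower for 25 of 36 members and higher for 0 (median -0.74). RRM2, which makes deoxynucleotides, was at 114 to 186 CPM on day 5 and at 31.8 to 122 CPM on day 11 (-1.31 ± 0.27, adjusted p = 0.00561). EXO1, MCM10 and GINS1 changed by -1.36 ± 0.40, -1.21 ± 0.29 and -1.14 ± 0.24 (adjusted p = 0.0247, 0.0104 and 0.00591). The highest day 11 wound for these 4 genes was C of animal 1324, where the replication list summed to 2060 CPM against 640 to 1160 CPM in the other day 11 wounds and 1620 to 2060 CPM on day 5. Both lists depended on the animals: without animal 1325, 1 mitosis gene and 0 replication genes were called, and with the wounds of an animal summed 7 and 0.

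Genes of the secretory pathway and the unfolded protein response, which fold and move proteins made for export, were lower for 16 of 28 members and higher for 0 (median -0.54). The list summed to 8020 to 9550 CPM on day 5 and to 5490 to 7650 CPM on day 11. HSP90B1, a chaperone of the endoplasmic reticulum, was at 816 to 1150 and then at 384 to 654 CPM (-1.07 ± 0.13, adjusted p = 0.000637), and HSPA5, the chaperone BiP, at 734 to 1050 and then at 441 to 661 CPM (-0.83 ± 0.12, adjusted p = 0.00103). TRIB3, CRELD2 and ASNS, stress-response genes, changed by -1.30 ± 0.21, -1.17 ± 0.19 and -1.11 ± 0.27 (adjusted p = 0.00189, 0.00197 and 0.0107). Without animal 1325, 5 members were lower, and with the wounds of an animal summed 2.

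Blood vessel endothelial genes were lower for 5 of 30 members and higher for 1, near the share of all genes or below it (median -0.19). ENG, a TGF-beta co-receptor of activated endothelium, went from 377 to 528 CPM to 216 to 327 CPM (-0.69 ± 0.13, adjusted p = 0.00375), NOS3, which makes nitric oxide, changed by -0.94 ± 0.20 (adjusted p = 0.00583) and ACKR1, of venules, by -1.17 ± 0.33 (adjusted p = 0.0220). PECAM1, of all endothelium, overlapped between the days at medians of 584 and 538 CPM (-0.20 ± 0.18, adjusted p = 0.415). Pericyte genes were higher for 3 of 10 members: RGS5 from a median of 177 to 371 CPM without overlap (1.05 ± 0.20, adjusted p = 0.00381), NOTCH3 by 0.95 ± 0.18 (adjusted p = 0.00323) and PDGFRB by 0.65 ± 0.17 (adjusted p = 0.0177).

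Lymphatic vessel genes were higher for 6 of 9 members and lower for 0 (median 1.03), and their sum did not overlap between the days, with 175 to 264 CPM and then 326 to 504 CPM. MMRN1 was at 12.3 to 35.3 CPM on day 5 and at 35.8 to 70.8 CPM on day 11 (1.52 ± 0.27, adjusted p = 0.00283), and the chemokine CCL21, which guides dendritic cells into lymph vessels, at 2.71 to 25.5 and 25.8 to 54.5 CPM (1.78 ± 0.46, adjusted p = 0.0138). RELN changed by 1.39 ± 0.23 (adjusted p = 0.00218), STAB2 by 2.25 ± 0.58 (adjusted p = 0.0151) and the receptor FLT4 by 1.03 ± 0.19 (adjusted p = 0.00308). The defining members PROX1 and LYVE1 were not called, at 0.54 ± 0.35 and -0.11 ± 0.21 (adjusted p = 0.25 and 0.718). With the wounds of an animal summed, 0 members were called.

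Hypoxia and glycolysis genes stood below the shares of all genes, with 2 of 24 higher and 3 lower (median -0.12). ANGPTL4, a lipase inhibitor induced by hypoxia and lipid, was at 233 to 531 CPM on day 5 and at 38.9 to 166 CPM on day 11 (-1.95 ± 0.39, adjusted p = 0.00485). KDM3A and ANKRD37 were higher, by 0.64 ± 0.11 and 1.36 ± 0.41 (adjusted p = 0.00276 and 0.0283), and PGAM1 and PDK1 lower, by -0.47 ± 0.14 and -0.35 ± 0.10 (adjusted p = 0.0268 and 0.0201).

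Basal keratinocyte genes were measured mostly in wound C of animal 1323, while suprabasal genes summed to 393 to 3960 CPM on day 5, to 6940 CPM in that wound and to 119 to 448 CPM in the other day 11 wounds. KRT5, the basal keratin, was at 10.4 to 104 CPM in the other 11 samples and at 5470 CPM there, so its log2 fold change of 1.5 ± 1.55 (adjusted p = 0.477) was -0.64 without that wound. KRT10, of differentiating epidermis, had medians of 40.1 and 41.6 CPM (0.56 ± 0.46, adjusted p = 0.367). Of 15 basal and activated keratinocyte genes DSP was called (0.43 ± 0.13, adjusted p = 0.0245). In the time course given below, DSP had medians of 16.7 CPM in excised skin and 16.5 CPM on day 5, where KRT5 had 8610 and 23.5 CPM. The level under this symbol thus did not follow the basal keratin. Of 16 suprabasal genes CALML5 was higher (2.57 ± 0.80, adjusted p = 0.0314, and 1.35 without wound C of animal 1323) and TGM3 lower (-2.88 ± 0.50, adjusted p = 0.00257). TGM3, a crosslinking enzyme of the cornified layer, ranged from 218 to 3820 CPM on day 5 and from 39.3 to 543 CPM on day 11. Its day 5 median on the scale of the time course was 1290 CPM, against 1400 CPM for the sum of the suprabasal list. The day 5 sum was thus mostly this 1 gene and is no measure of the other members.

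Adipocyte genes were lower for 7 of 10 members and higher for 0, with a median of -2.76. The list summed to 772 to 4810 CPM on day 5, to 40.6 to 75.7 CPM in 3 wounds of day 11 and to 436 to 1620 CPM in the other 3, so the days overlapped. PCK1, the enzyme of glyceride synthesis in fat, was at 58.5 to 212 CPM on day 5 and at 0.376 to 52.7 CPM on day 11 (-3.34 ± 1.04, adjusted p = 0.0316). PLIN1, which coats the lipid droplet, had medians of 265 and 20.3 CPM (-3.33 ± 1.12, adjusted p = 0.0423, and 0.0517 without wound C of animal 1323), and LEP, leptin, had 12 and 0.139 CPM (-5.61 ± 1.32, adjusted p = 0.00990). CIDEC changed by -3.61 ± 0.85 (adjusted p = 0.00975). ADIPOQ, adiponectin, had medians of 1150 and 142 CPM and a day 11 range of 0.527 to 984 CPM, and was not called (-2.78 ± 1.27, adjusted p = 0.114). With animal 1325 left out 0 members were called, and with the wounds of an animal summed 2.

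Of the melanocyte genes 2 of 3 tested were higher and 1 lower, of the erythrocyte genes 3 of 3 were lower, and 1 of 5 Schwann cell genes, 1 of 4 mast cell genes and the 1 tested hair follicle gene were lower. The melanocyte gene MLANA was at 0.201 to 1.02 CPM on day 5 and at 2.68 to 15.7 CPM on day 11 (3.16 ± 0.48, adjusted p = 0.00138), and its regulator MITF at 14.9 to 24.2 and 25.7 to 46.6 CPM (0.83 ± 0.16, adjusted p = 0.00438), while SLC45A2 was lower (-0.68 ± 0.23, adjusted p = 0.0398). In the time course given below, MLANA was at 0 CPM in all 3 samples of excised skin. MITF had a median of 50.1 CPM there, against 34.0 CPM on day 11. TYR had no counts in any of the 12 samples, so a gain of melanocytes cannot be read from these values. The hemoglobin gene HBB, whose symbol 3 gene IDs share, changed by -2.26 ± 0.37 (adjusted p = 0.00212), and the erythroid genes ALAS2 and HBM by -1.83 ± 0.37 and -1.77 ± 0.51 (adjusted p = 0.00491 and 0.0238). PMP22, of myelin, was lower by -0.73 ± 0.17 (adjusted p = 0.00952) and HDC, which makes histamine in mast cells, by -2.03 ± 0.47 (adjusted p = 0.00905), the latter at 1.11 CPM or less in every sample. The hair keratin KRT27 changed by -2.37 ± 0.80 (adjusted p = 0.0422) and was not called without wound C of animal 1323 (adjusted p = 0.0706). Of the skeletal muscle genes 0 of 4 tested were called, and the 1 tested gene of muscle regeneration was not.

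The edge of the same 12 wounds was sampled beside the center, which allowed a test of whether the change from day 5 to day 11 differed between the locations. With the wound as block, the change was higher in the center for 552 of 15280 genes (3.61%) and lower for 485 (3.17%). At the edge alone, 17.9% of 14572 genes were higher and 17.5% lower on day 11. Among edge samples of day 11, wound C of animal 1324 stood lowest in mean r, at 0.968 against 0.977 to 0.980, and without that wound 472 genes had a higher change in the center and 356 a lower one. Apart from reference genes such as CD163, the genes below were named for their change in the center, which favors a difference from the edge. A count of differences among them is thus partly fixed by that choice. C3 changed by 4.51 in the center and by -0.19 ± 0.49 at the edge (SE, adjusted p = 0.787), a difference of 4.62 (adjusted p = 0.00184). MMP13, MMP12, MMP9 and MMP1 changed by -0.62, -1.86, -0.79 and -1.56 at the edge, and the differences were 6.04, 6.02, 3.42 and 4.05 (adjusted p = 0.00877, 0.00261, 0.00151 and 0.00266). ATP6V0D2 and GPNMB, at 0.02 and -0.16 at the edge, differed by 4.63 and 2.45 (adjusted p = 0.00261 and 0.000762).

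Among the losses, TRARG1 changed by -0.51 at the edge, with a difference of -3.90 (adjusted p = 0.0261). Adipocyte genes were lower for 0 of 10 members at the edge, and for 5 of 10 the change was lower in the center. T and NK cell genes were higher for 1 of 26 members and lower for 4 at the edge, and 8 of 26 had a higher change in the center, CD3E among them with a difference of 1.30 (adjusted p = 0.0392). Macrophage genes were lower for 10 of 23 members at the edge, and 7 had a higher change in the center, such as CD68 with 1.57 and CD163 with 1.05 (adjusted p = 0.00543 and 0.0319). Interferon-stimulated genes were higher for 4 of 27 members at the edge, and 5 had a lower change in the center, ISG15 with -2.69 (adjusted p = 0.0290). In contrast, mitosis genes were lower for 42 of 42 members at the edge and 0 differed between the locations, with a median difference of 0.11. Fibrillar collagens were higher for 8 of 9 at the edge and 0 of 9 were called as differing. Their median log2 fold change was nonetheless 1.68 at the edge against 0.77 in the center, and the median difference was -1.0. COL11A1 changed by 4.84 at the edge (adjusted p = 0.000799), and its difference of -1.33 was not called (adjusted p = 0.223). In other matrix lists some members had a lower change in the center. These were 5 of 25 proteoglycan and elastic fiber genes, 4 of 19 adhesive and matricellular, 4 of 25 collagen processing and 1 of 16 other collagen genes. The change was higher in the center for 1 adhesive gene. Of 26 metalloproteinase and inhibitor genes it was higher for 5 and lower for 1.

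**Figure D4:**
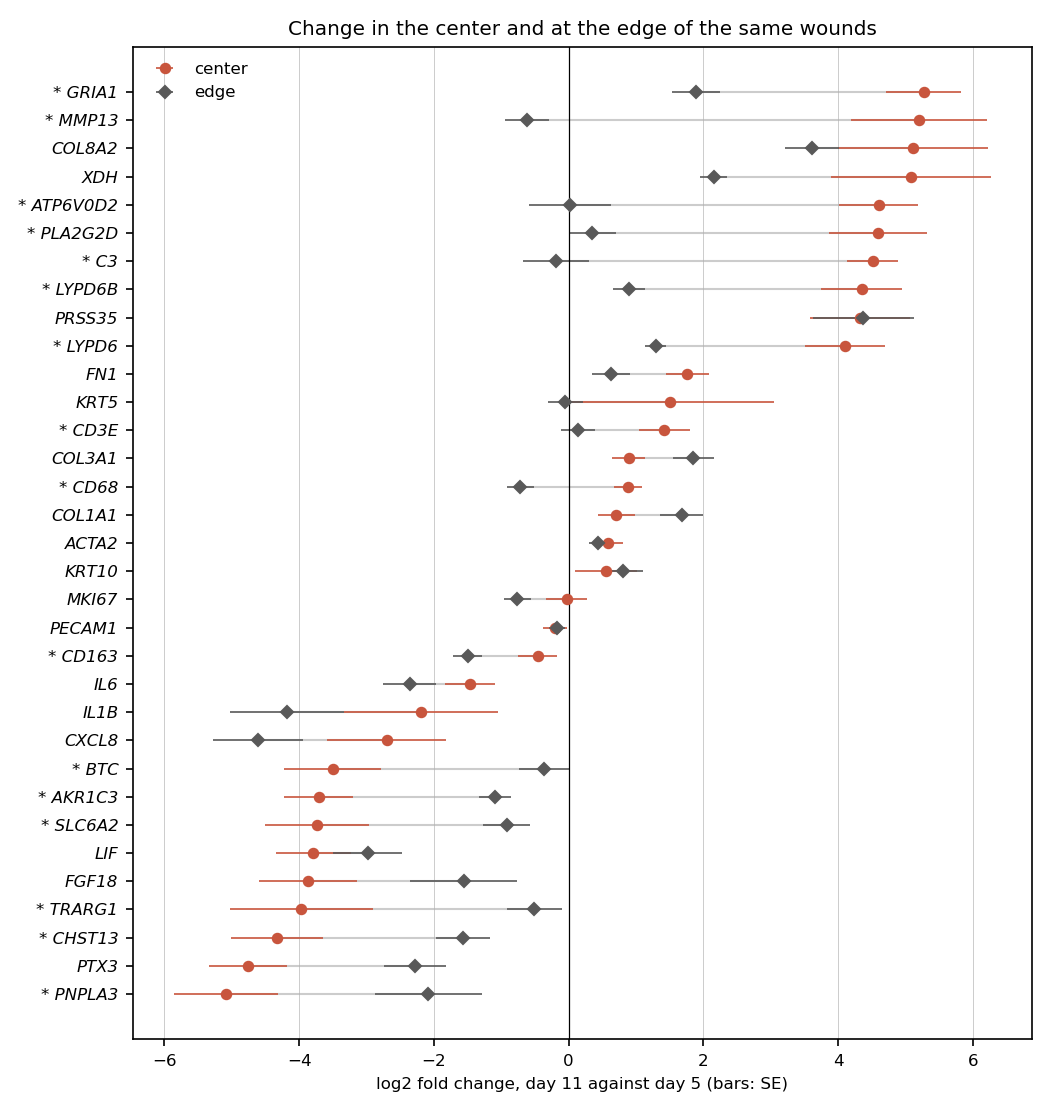
Log2 fold change of day 11 over day 5 in the center (red circles) and at the edge (grey diamonds) of the same wounds, with SE bars, for 19 genes of largest change in the center and 14 reference genes. An asterisk marks genes whose change differed between center and edge (adjusted p below 0.05), with C3 near 0 at the edge and at 4.51 in the center.

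The nearest step of days in other animals was day 13 against day 6 in the center of animals 1326, 1327 and 1328, with 6 wounds per day and no sample shared with the comparison above. The earlier day again held wounds B and K and the later day wounds C and J, so day and wound letter cannot be told apart here either. There, 971 of 13925 genes (6.97%) were higher on the later day and 1069 (7.68%) were lower. Of the 4492 genes called between days 5 and 11 that were tested there, 4312 (96.0%) had the same sign, against 80.3% of all 13740 genes tested in both. The calls shared in the same direction numbered 1588, which was 35.4% of the first list and 78.6% of the second, and 0 genes were called in opposite directions. Wound B of animal 1328 on day 6 stood lowest in its mean r with its day, at 0.912 against 0.945 to 0.965. Without it the later day had 1182 genes higher and 1430 lower, and 1976 calls were shared.

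Of the 19 genes of largest change, 19 had the same sign in those animals and 15 were called. C3 changed by 3.92 (adjusted p = 0.000852), GRIA1 by 4.02 (adjusted p = 0.00455) and LIF by -4.33 (adjusted p = 0.00672). MMP13, LYPD6, TRARG1 and BTC were not called, at 2.02, 1.12, -2.16 and -1.17 (adjusted p = 0.130, 0.212, 0.127 and 0.252). Mitosis genes were lower for 32 of 42 members (median -1.06, against -0.02 over all genes), fibrillar collagens higher for 6 of 9 and T and NK cell genes higher for 6 of 26. Macrophage genes were higher for 7 of 23 members, adipocyte genes lower for 0 of 10, and interferon-stimulated genes lower for 0 of 25 and higher for 2. The secretory list was lower for 3 of 28.

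Other days of the same animals place the 2 days in a course, given as medians of CPM scaled over all these libraries, with 6 samples a day and 3 on days 15 and 21. C3 had 85.7 CPM on day 1, then 36.0 (day 5), 90.6 (day 7), 932 (day 11), 640 (day 15) and 154 CPM (day 21). Day 11 thus had the highest median of the days sampled in these animals. Single samples ranged from 478 to 1340 CPM on day 11 and from 75.3 to 1570 CPM on day 21. The median of MMP13 was highest on day 11 as well, with 176 CPM against 42.8 CPM (day 7) and 102 CPM (day 15). COL11A1 went from 246 CPM (day 11) to 486 CPM (day 15) and 532 CPM (day 21). SFRP2 and CDC20 were highest on day 5, with 2320 and 66.9 CPM. PTX3 had medians of 1450 CPM (day 1), 206 CPM (day 5) and 6.96 CPM (day 11), against 6.49 CPM in excised skin. The T cell gene CD3E had 11.1 CPM (day 5), 21.9 CPM (day 11) and 25.7 CPM (day 15). No test was run on the course.

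**Figure D5:**
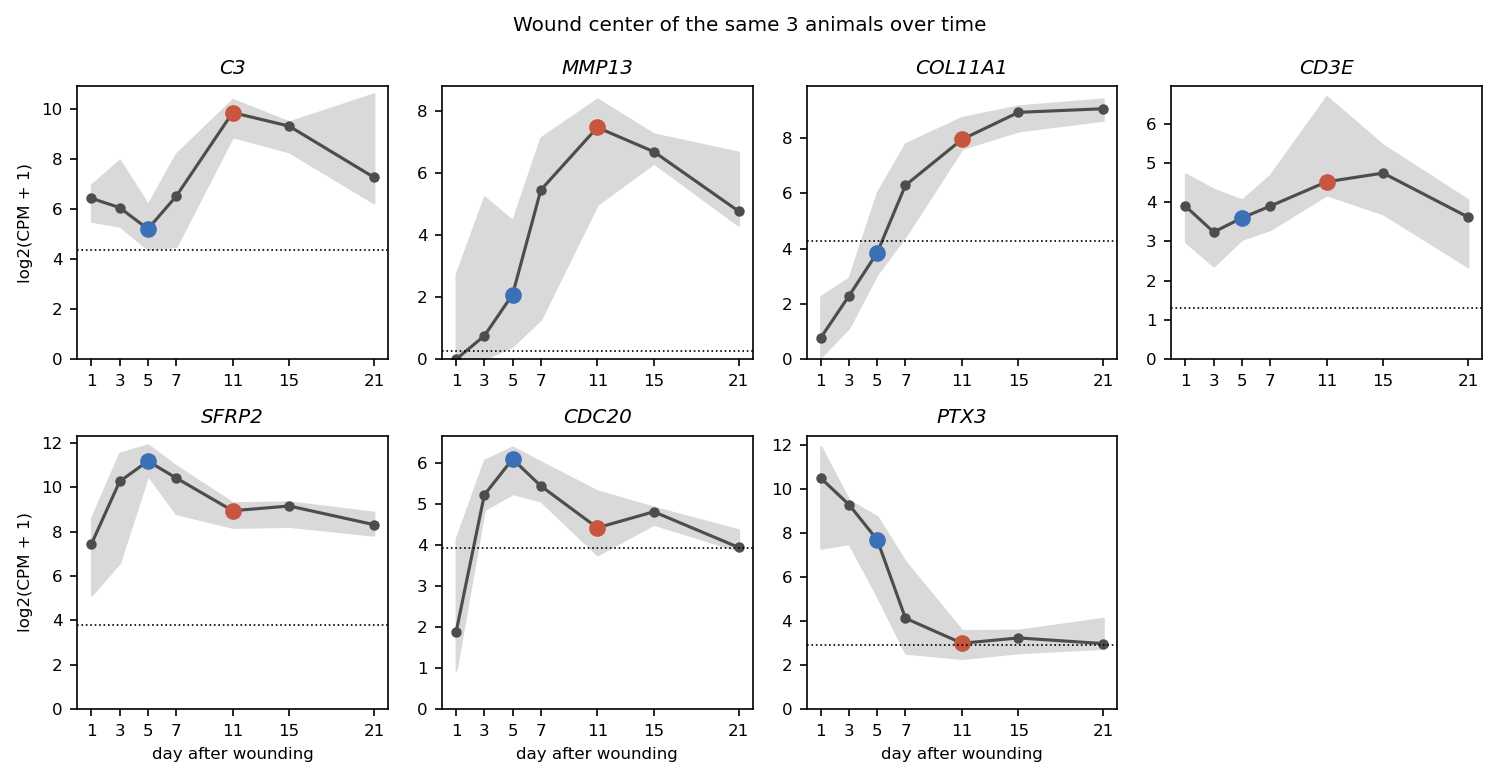
Level of 7 genes in the wound center of animals 1323, 1324 and 1325, as log2(CPM + 1) against the day after wounding. Points are medians of 6 samples (3 on days 15 and 21), with day 5 in blue and day 11 in red, the grey band runs from the lowest to the highest sample, and the dotted line is the median of excised skin on day 0 in these animals (3 samples).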

How the data were processed

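Punch biopsies from the center and edge of wounds in 6 pigs were sequenced as poly-A RNA. The authors deposited counts of reads per gene with an FPKM table, of which the counts were used here. The aligner, the counter and the genome build are not given in the sources used here. Of 30461 genes in the deposited table, 11018 had a symbol from its name column and 6496 from its protein match. Where a symbol stood on several gene IDs, as for ADAMTS3, CD68, RRM2, STAB2 and HBB, the ID with the most counts was used, and these values are uncertain since reads may be split between the IDs.

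Counts were tested in R 4.3.3 with edgeR 4.0.16 (TMM, filterByExpr with a minimum count of 10, quasi-likelihood test, Benjamini-Hochberg adjustment over all genes). The animal was the block for each comparison of days, and the wound for center against edge. The labels give the same animals on both days, and deviations of same-animal samples correlated at 0.219, -0.0346 and 0.268. Alternatives used limma 3.58.1 and DESeq2 1.42.0. No replicates agreed within counting noise, and scripts were tested on simulated data. Total counts were 14034086 to 23640195 per sample, which limits the precision for genes below about 1 CPM.

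Named genes were the 10 largest changes per direction among called genes with a mean of at least 5 CPM whose days did not overlap, up to 4 called members per direction of each of 34 gene lists, and 14 reference genes. Some genes that met these rules are not reported here. Other list members in the text were picked with their values in view. The comparison, lists and rules were chosen with earlier results of these data known.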

Additional observations from a re-analysis of the deposited data

Results flagged for a closer look

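In groups of 6 samples, the gap of the highest or lowest sample to its neighbour was set against the range of the group, with a critical ratio of 0.625. Of 68 groups 4 passed it, where chance passes about 1 in 20, or 3.4. Wound C of animal 1323 was far below the other day 11 samples in mean r (ratio 0.677) and far above them in KRT5 (0.757). Wound B of animal 1325 was lowest for PLA2G2D on day 5 (0.689), and wound B of animal 1324 was highest for IL6 on day 5 (0.634). Outside these 68 groups, wound C of animal 1324 was lowest in mean r among the edge samples of day 11, with a ratio of 0.74.

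For 16 of 33 genes tested, the change from day 5 to day 11 differed between center and edge. Of these 33, 19 were chosen for their change in the center, so the count is partly fixed by that choice, and over all genes the change was higher in the center for 3.61% and lower for 3.17%. The log2 change in the center exceeded that at the edge by 6.04 for MMP13, 4.63 for ATP6V0D2, 4.62 for C3, 4.31 for PLA2G2D, 3.46 for LYPD6B, 3.44 for GRIA1, 2.86 for LYPD6, 1.57 for CD68, 1.30 for CD3E and 1.05 for CD163. The difference was -3.90 for TRARG1, -3.20 for PNPLA3, -3.15 for BTC, -2.87 for SLC6A2, -2.81 for CHST13 and -2.78 for AKR1C3.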

How the results depend on the processing

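Between days 5 and 11, the fewest genes were called with the wounds of an animal summed, and the next fewest without animal 1325. With the wounds of an animal summed, 224 genes were higher and 266 lower on day 11, of which 460 of 490 were also called per wound in the same direction. Leaving out 1 sample or 1 animal gave 482 to 2249 genes higher and 363 to 2546 lower, with the lowest counts without animal 1325. Without animal 1323 the counts were 1438 and 1741, and without animal 1324 they were 1534 and 1863. For center against edge, the counts without the replicate block were 270 and 151 and with DESeq2 1112 and 1000, and leaving out 1 wound gave 349 to 650 and 270 to 592. Between days 6 and 13, leaving out 1 sample gave 530 to 1182 higher and 516 to 1430 lower. The cause was not tested. Without the animal as replicate block, 2366 genes were higher and 2434 lower between days 5 and 11, and MKI67 was at 0.04. With 1 sample or animal left out, MKI67 ranged from -0.33 to 0.21, KRT5 from -0.64 (without wound C of animal 1323) to 3.30, with -0.11 without animal 1323, and CD163 from -0.92 to 0.00. CD163 was called at -0.92, without animal 1324, and was at 0.00 without animal 1325.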
